A study of Homo sapiens with 17 samples.

Results

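The EGF receptor system was followed through 10 genes in the RNA of MDA-MB-231 cells exposed to TRAIL. They were chosen by symbol and comprised 6 ligands (HBEGF, AREG, EREG, TGFA, BTC and NRG1), 3 receptors (EGFR, ERBB2 and ERBB3) and ERRFI1, an inhibitor of the receptors. All 10 were found among the 58870 genes of the deposited table, and 10 of 10 passed the filter on low counts that left 15365 genes for testing. MDA-MB-231 is an established human line of triple-negative breast cancer, labelled mesenchymal and basal B, and TRAIL is a TNF family ligand that can trigger apoptosis through death receptors. The groups were 0, 1, 3, 6, 12 and 24 h of TRAIL at 45 nM, with 3 libraries at each time except 1 h, which had 2 (17 in all). The dose was described as suboptimal, so that living cells would be sampled. Every library, 0 h included, carried the label of TRAIL treatment, and no group was left untreated for the later times, so that TRAIL and time in culture cannot be told apart. All libraries came from 1 line in serum-containing medium, and the labels do not say whether replicates were separate cultures. The p-values therefore measure the spread between these libraries, which may be technical. RNA was measured in bulk, in which fewer expressing cells and less RNA per cell cannot be told apart.

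The ligands are made as membrane-bound precursors that proteases of the ADAM family release from the cell surface. HBEGF, AREG, EREG, TGFA and BTC bind EGFR, while NRG1 binds ERBB3 and ERBB4. ERBB2 has no known ligand of its own and acts as the preferred partner of the other receptors, and ERBB3 has little kinase activity and signals mainly in such pairs. Active receptors drive the RAS, RAF, MEK and ERK cascade, which in turn raises ligand transcripts and feedback inhibitors such as ERRFI1, a protein that binds the kinase domain of EGFR and blocks it. EGFR is commonly expressed in basal-type breast cancer lines.

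Total counts per library ran from 13731497 to 19234939. The line's label was checked against its markers. VIM averaged 3251 CPM (counts scaled to library depth) and AXL 789 CPM over all libraries, while CDH1 had at most 16 counts, ESR1 at most 2, PGR at most 1 and FOXA1 at most 1 in any library. Other epithelial and luminal markers were expressed, with KRT19 averaging 391.7 CPM, EPCAM 16.3 CPM (204 to 346 counts) and GATA3 10.5 CPM (105 to 213 counts). In contrast, the basal keratins KRT5 and KRT14 had at most 1 and 4 counts. The mesenchymal marker SPARC had at most 17 counts. Replicates 2 and 3 were closer to each other at 6 h and at 24 h than any other replicate pair, with a chi-square per gene of 1.52 and 1.69 against 4.09 to 16.1 elsewhere, and results were also computed with each of these pairs averaged as 1 library. Libraries further differed in how their counts depended on transcript length and GC content, and values after a correction for those trends are given for the genes that it moved most.

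At 0 h the genes spanned more than 2 orders of magnitude per transcript length. ERRFI1 was highest at 142 CPM per kb of its longest annotated transcript, followed by AREG (66.4), HBEGF (30.7), EGFR (23.8), TGFA (17.1), ERBB2 (13.1) and NRG1 (11.7), all in CPM per kb. Well below these lay EREG at 1.74 ± 0.163 CPM per kb (SD, n = 3), ERBB3 at 0.578 ± 0.0757 and BTC at 0.479 ± 0.147. The libraries of each gene lay apart from those of the next gene in this order, except ERBB3 and BTC, whose ranges overlapped. ERBB3 and BTC also changed places when the union of all exons was used as the length. AREG was thus the most abundant ligand transcript and EGFR the most abundant receptor transcript. Among all genes tested, ERRFI1 stood at percentile 97.2 and AREG at 93.7 for level per length, against 15 for ERBB3 and 12.8 for BTC.

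**Figure D1:**
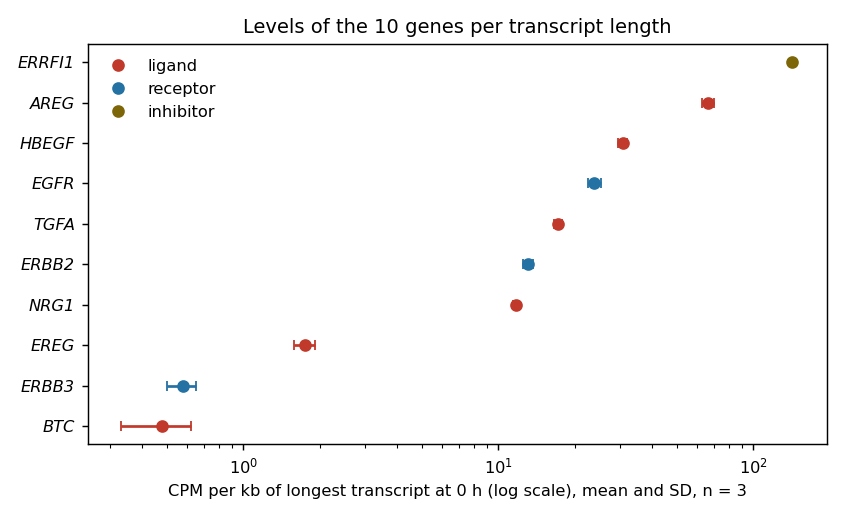
Mean level of each gene at 0 h on a log axis, in CPM per kb of the longest annotated transcript, with SD (n = 3), coloured by role. ERRFI1 lies at 142 and the ligands AREG and HBEGF follow at 66.4 and 30.7, whereas ERBB3 and BTC lie below 1.

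Over all 6 times together, 8 of the 10 genes changed and 2 (BTC and ERBB2) were not called, by edgeR's quasi-likelihood F-test with Benjamini-Hochberg adjustment over all genes tested (adjusted p below 0.05). Of all genes tested, 64.2% were called in this test. HBEGF had the smallest p of the 10 (adjusted p 2.3e-09, rank 53 of 15365), followed by ERRFI1 (3.8e-07) and ERBB3 (5.4e-06). HBEGF was the 1 member called against 0 h after 1 h of TRAIL, beside 0.312% of all genes tested (0.26% higher and 0.0521% lower). After 3 h there were 5 (3 higher and 2 lower), beside 17.7% of all genes (9.04% higher and 8.71% lower). After 6 h 6 members were higher and 1 was lower, beside 30.1% (16.9% higher, 13.2% lower). After 12 h only TGFA and ERRFI1 were called, both higher, beside 12.4% (5.96% higher, 6.48% lower). After 24 h 6 members were higher and 0 lower, beside 35.1% (18% higher, 17.1% lower). The libraries of the later time lay wholly apart from the 0 h libraries for 3, 5, 7, 5 and 7 members in turn, beside 19.1%, 33.9%, 44.1%, 32.6% and 45.8% of all genes. The median log2 fold change of the 10 genes was -0.020 for 1 h and -0.087 for 3 h, where that of all genes tested was -0.0041 for both. It was 0.27 for 6 h, 0.21 for 12 h and 0.25 for 24 h, where that of all genes was -0.022, -0.0032 and -0.0017. The 3 h count was 3 in a fit of only those libraries, without replicate 3 of 0 h or without replicate 2 of 3 h. The 12 h count was 4 after correction for length and GC content, and the 1 h count was 0 without replicate 2 of 1 h.

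HBEGF encodes heparin-binding EGF-like growth factor, a ligand of EGFR whose precursor is also the diphtheria toxin receptor. Its gene (ENSG00000113070) lies on the minus strand of chromosome 5 from 140332843 to 140346631 (GRCh38). HBEGF was the only member called at 1 h, and it showed the highest 3 h level relative to 0 h of the 10. At 0 h the libraries held 72.8, 76.7 and 70.2 CPM of HBEGF. They held 96.5 and 100.5 CPM at 1 h, and 129, 129 and 135 CPM at 3 h. Both 1 h libraries thus lay above every 0 h library, and the 3 h libraries above those at 1 h. At 6 h HBEGF had come down to 95.4, 93.7 and 91.7 CPM, and by 12 h to 67.3, 73.4 and 67.8 CPM, which overlapped the 0 h libraries. The 24 h libraries stood at 91.5, 83.5 and 84.1 CPM, above all at 0 h and 12 h.

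The log2 fold change of HBEGF against 0 h was 0.43 at 1 h (SE 0.063, adjusted p 0.00125), a 1.34-fold level. It was 0.84 at 3 h (SE 0.057, adjusted p 3.8e-09), a 1.79-fold level, then 0.35 at 6 h (adjusted p 0.000199) and 0.24 at 24 h (adjusted p 0.00379). HBEGF was not called at 12 h. Between consecutive times it rose from 1 h to 3 h (0.41, adjusted p 0.00044), fell from 3 h to 6 h (-0.48, adjusted p 8.3e-06), fell again from 6 h to 12 h (-0.43, adjusted p 3.6e-05) and rose from 12 h to 24 h (0.31, adjusted p 0.00225). These tests are edgeR's. The 1 h call of HBEGF was lost without replicate 2 of 1 h (0.39, adjusted p 0.0541), where the lone 1 h library is assumed to vary like the other groups. The other HBEGF calls held under each alternative run.

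TGFA, the gene of transforming growth factor alpha, encodes another ligand of EGFR and maps to the minus strand of chromosome 2, 70447280 to 70554193 (GRCh38, ENSG00000163235). Unlike HBEGF, its highest level was at 24 h. The libraries had 76.2, 70.9 and 73.9 CPM at 0 h and 77.1 and 71.7 CPM at 1 h, which overlapped. From 3 h on, every TGFA library lay above every 0 h library, with 82.8, 85.9 and 91.6 CPM at 3 h, 83.6, 88.2 and 91.1 at 6 h, and 86.5, 87.7 and 88.6 by 12 h. The 24 h libraries had 102, 105 and 106 CPM. The levels of 3, 6 and 12 h overlapped, and the 24 h libraries lay above all others. TGFA rose by a log2 fold change of 0.24 at 3 h (SE 0.057, adjusted p 0.00803), 0.25 at 6 h (adjusted p 0.00306), 0.25 at 12 h (adjusted p 0.0073) and 0.50 at 24 h (SE 0.056, adjusted p 4.8e-06, a 1.41-fold level). The step from 12 h to 24 h was 0.25 (adjusted p 0.00791, and 0.0525 with the close replicates averaged). The 3 h call against 0 h was lost with library size as the only scaling (0.17, adjusted p 0.0609). TGFA was also called from 1 h to 3 h (0.22, adjusted p 0.0463), a call that held in only 4 of the 17 fits with 1 library left out. TGFA was the 1 member higher at each of 3, 6, 12 and 24 h.

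NRG1, the gene of neuregulin 1, encodes a ligand of ERBB3 and ERBB4. NRG1 stood at 69.2, 71.0 and 67.7 CPM at 0 h and 72.0 and 69.6 CPM at 1 h. It was at 74.5, 79.8 and 84.0 CPM at 3 h and 83.0, 85.8 and 84.8 CPM at 6 h, all above the 0 h libraries. At 12 h it was at 60.5, 65.7 and 62.5 CPM, below every 0 h library, and at 24 h at 78.6, 71.1 and 74.3 CPM. Against 0 h NRG1 differed by a log2 value of 0.20 at 3 h (SE 0.059, adjusted p 0.0269) and 0.29 at 6 h (SE 0.059, adjusted p 0.00143), and neither 12 h (-0.14, adjusted p 0.134) nor 24 h (0.11, adjusted p 0.161) was called. The clearest NRG1 difference was the fall from 6 h to 12 h (-0.42, adjusted p 5.6e-05), which held under every alternative run. From 12 h to 24 h NRG1 rose by 0.25 (adjusted p 0.0122). NRG1 calls were less stable than those of HBEGF. At 3 h the call was lost without replicate 3 of 0 h (0.18, adjusted p 0.0958), replicate 2 of 3 h (0.20, 0.0645) or replicate 3 of 3 h (0.16, 0.0778), with library size as the only scaling (0.13, 0.152), without the filter (0.18, 0.150) and in the fit of those 2 groups alone (0.20, 0.0629). After the length and GC correction the NRG1 value was 0.16 at 6 h (adjusted p 0.0526) and -0.23 at 12 h (adjusted p 0.0118), so that the first call was lost and the second gained. At 24 h the corrected NRG1 value was -0.06 (adjusted p 0.466), and neither value was called. The rise of NRG1 from 12 h to 24 h was also not called after the correction (0.17, adjusted p 0.0557) or without replicate 1 of 12 h (0.22, adjusted p 0.0634).

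AREG (amphiregulin) and EREG (epiregulin) are ligands of EGFR, encoded side by side on the plus strand of chromosome 4. EREG (ENSG00000124882) runs from 74365143 to 74388751 and AREG (ENSG00000109321) from 74445134 to 74455009 (GRCh38), with 56.4 kb between them. BTC (betacellulin) lies 289.8 kb further on, on the minus strand from 74744759 to 74794686. Among the 10 genes only these 3 share a chromosome neighbourhood, in which the ligand gene EPGN and the chemokine genes CXCL1, CXCL2 and CXCL3 also lie. The RefSeq promoter table held 8 of the 10 genes (GRCh38.p14). The 250 bases before the start are shown for the neighbours AREG and EREG, and for HBEGF as the earliest gene to rise. The windows are chr4:74444886-74445135 on the plus strand for AREG, chr4:74364895-74365144 on the plus strand for EREG and chr5:140346604-140346853 on the minus strand for HBEGF. Each is written 5′ to 3′, and capitals mark 4 motifs. One is TATAAA, searched in the direction of the gene only. The others were searched on both strands. They are TGACG, the palindrome TGACGTCA that holds it once on each strand, and the GC box GGGCGG.

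AREG: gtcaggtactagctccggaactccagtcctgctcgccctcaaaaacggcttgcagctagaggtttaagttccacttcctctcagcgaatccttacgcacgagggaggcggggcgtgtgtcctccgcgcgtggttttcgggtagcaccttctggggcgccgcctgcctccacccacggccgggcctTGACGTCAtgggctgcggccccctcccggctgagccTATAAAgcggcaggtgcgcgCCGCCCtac
EREG: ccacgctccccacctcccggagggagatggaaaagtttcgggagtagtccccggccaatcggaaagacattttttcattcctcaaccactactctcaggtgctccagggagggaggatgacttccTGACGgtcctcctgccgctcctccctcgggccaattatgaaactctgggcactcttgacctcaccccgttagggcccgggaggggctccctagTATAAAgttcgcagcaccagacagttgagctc
HBEGF: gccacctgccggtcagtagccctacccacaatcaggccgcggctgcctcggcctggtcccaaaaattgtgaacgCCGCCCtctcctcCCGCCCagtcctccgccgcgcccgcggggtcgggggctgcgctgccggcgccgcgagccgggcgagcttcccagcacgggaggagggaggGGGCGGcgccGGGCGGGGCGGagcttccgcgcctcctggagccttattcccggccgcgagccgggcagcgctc

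AREG and EREG each held TATAAA, from base 29 to 24 before the start in AREG and from base 32 to 27 in EREG. They were the only 2 of the 8 members with it, and 6.80% of all 35116 promoters held it on that strand. HBEGF, TGFA, EGFR and ERRFI1, which like AREG and EREG were called higher at 24 h, did not hold it. TGACG was found in AREG, EREG and TGFA, against 21.2% of all promoters. In AREG it was part of the full palindrome TGACGTCA, the cyclic AMP response element, at bases 65 to 58 before the start, which 1.65% of promoters held. HBEGF had 5 matches to GGGCGG, of which 2 shared a base, and neither TATAAA nor TGACG. The GC box was present in 5 of the 8 members and in 42.6% of all promoters. TGANTCA, a sequence bound by AP-1, was found in ERBB2 only (6.57% of promoters), and the NF-κB consensus in TGFA only (5.21%). A match is a description of these windows.

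EREG was the ligand with the highest fold among the 6 at 6 h. EREG libraries held 7.47, 7.79 and 8.90 CPM at 0 h and 8.48 and 7.07 CPM by 1 h. The 3 h libraries had 6.38, 5.59 and 8.68 CPM, and all 3 times overlapped. At 6 h EREG was at 10.4, 16.6 and 15.9 CPM, so that replicate 1 stood apart from the close pair of replicates 2 and 3 but still above every 0 h library. At 12 h EREG was at 8.98, 11.6 and 8.39 CPM, and at 24 h at 13.1, 14.6 and 13.7 CPM. EREG rose against 0 h by 0.83 at 6 h (log2, SE 0.17, adjusted p 0.00175, a 1.78-fold level) and by 0.78 at 24 h (SE 0.17, adjusted p 0.00236, 1.71-fold). Both calls held under every alternative run, with values of 0.70 to 1.01 at 6 h and 0.67 to 0.85 at 24 h. From 3 h to 6 h EREG rose by 1.05 (adjusted p 0.000229). The fall from 6 h to 12 h (-0.56, adjusted p 0.0234) was lost without replicate 2 of 6 h (-0.44, adjusted p 0.115), replicate 3 of 6 h (-0.47, 0.112), replicate 1 of 12 h (-0.52, 0.0752) or replicate 3 of 12 h (-0.46, 0.101), with the close replicates averaged (-0.45, 0.135) and when only 6 h and 12 h were fitted (-0.53, 0.0534). EREG counts ranged from 72 to 294 per library.

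AREG reached its highest level at 24 h, 1.28-fold that of 0 h, beside 1.71-fold for EREG, and the difference between the genes was not tested. AREG libraries stood at 80.3, 79.1 and 87.6 CPM at 0 h and 80.4 and 82.1 CPM by 1 h. The 3 h libraries had 75.1, 62.9 and 81.4 CPM. AREG was at 91.8, 91.0 and 85.9 CPM at 6 h and 90.8, 94.1 and 93.2 CPM by 12 h. The 24 h libraries had 116, 102 and 98.6 CPM. All 12 h and 24 h libraries lay above all 0 h libraries. The AREG log2 fold change was 0.36 at 24 h (SE 0.078, adjusted p 0.00174), which held under every alternative run, and 0.17 at 12 h (adjusted p 0.154), which was not called. From 3 h to 6 h AREG rose by 0.29 (adjusted p 0.00604, and 0.19 with adjusted p 0.0507 without replicate 2 of 3 h). The longest AREG transcript has 1240 bases. The library trend at this length and GC content averaged 0.036 (log2) over the 0 h libraries, 0.13 over those of 3 h, -0.13 over those of 6 h and -0.11 over those of 24 h. After the correction AREG was lower at 3 h (-0.26, adjusted p 0.00738) and higher at 6 h (0.28, adjusted p 0.00269), 12 h (0.20, adjusted p 0.0473, and 0.0509 with the replicate block added) and 24 h (0.51, adjusted p 8.1e-06). The corrected AREG rise from 3 h to 6 h was 0.55 (adjusted p 4.9e-06). From 12 h to 24 h AREG was not called as counted (0.19, adjusted p 0.115) but was after the correction (0.31, adjusted p 0.00269), as was EREG (0.50, adjusted p 0.0548 as counted, and 0.46, adjusted p 0.0169 corrected). BTC stood between 0.621 and 1.94 CPM in the 17 libraries, with 8 to 38 counts, and its times overlapped throughout. BTC was called in none of the 9 comparisons by edgeR, and 0 of its differences passed an unadjusted p of 0.05. At these counts the standard errors of its log2 fold changes were 0.35 to 0.44, so that a change as small as that of HBEGF at 1 h was not detectable in BTC.

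**Figure D2:**
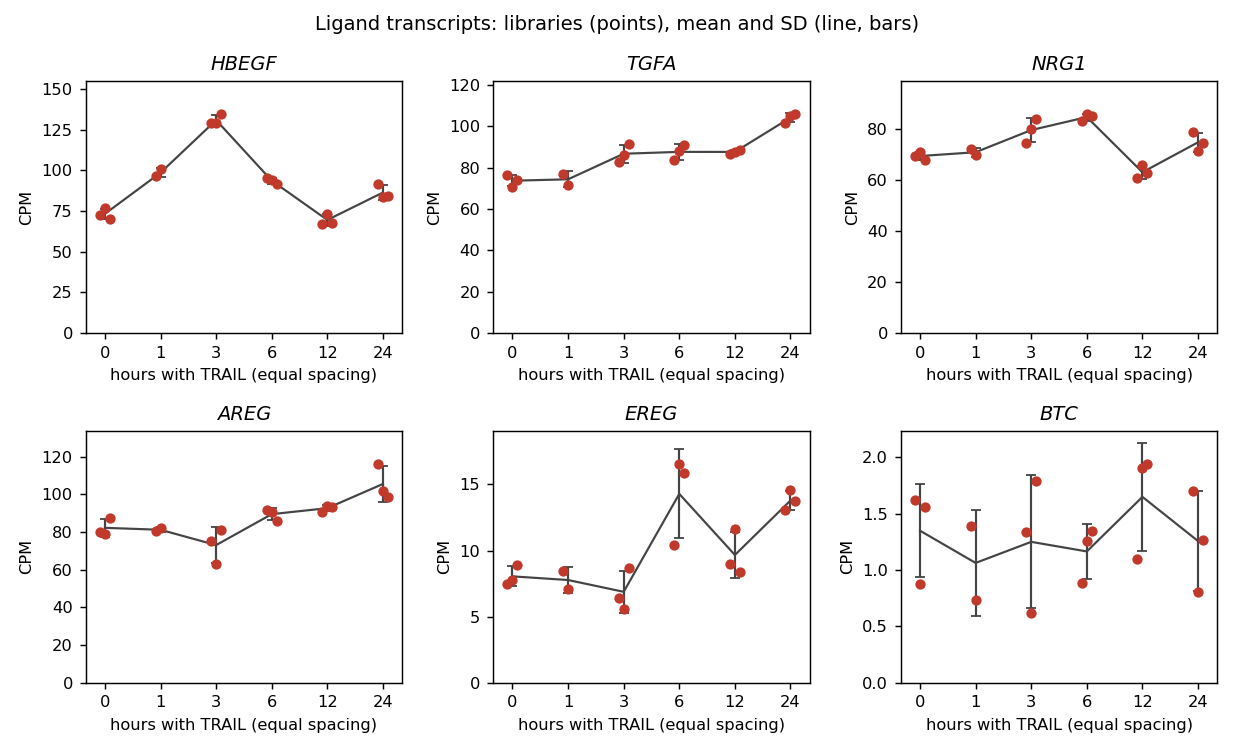
Level of each of the 6 ligand transcripts in CPM against hours with TRAIL (equally spaced). Points are libraries, and lines and bars give the mean and SD (n = 3, and 2 at 1 h). HBEGF peaks at 3 h (129 to 135 CPM), TGFA is highest at 24 h, EREG is high at 6 h and 24 h, and BTC libraries overlap at all times.

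EGFR encodes the receptor shared by most of these ligands and maps to the plus strand of chromosome 7, 55019021 to 55211628 (GRCh38, ENSG00000146648). EGFR libraries held 220, 234 and 247 CPM at 0 h and 234 and 213 CPM by 1 h. The 3 h libraries had 227, 211 and 239 CPM, and all 3 times overlapped. At 6 h EGFR was at 282, 332 and 329 CPM, above every library of 0, 1 and 3 h. EGFR was back at 210, 242 and 223 CPM at 12 h and stood at 238, 302 and 284 CPM at 24 h, where replicate 1 lay within the 0 h range. The EGFR log2 fold change was 0.43 at 6 h (SE 0.085, adjusted p 0.00122, a 1.34-fold level) and 0.23 at 24 h (SE 0.085, adjusted p 0.039). Between neighbouring times EGFR rose to 6 h (0.48 above 3 h, adjusted p 0.000295), fell by 0.48 to 12 h (adjusted p 0.000614) and rose again to 24 h (0.29 above 12 h, adjusted p 0.0346).

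The 6 h rise of EGFR held under every alternative, while the 24 h rise did not. EGFR has a longest transcript of 9821 bases. The length and GC trend at EGFR averaged -0.073 (log2) over the 0 h libraries, 0.092 at 6 h and 0.14 at 24 h. After the correction the EGFR log2 fold change was 0.26 at 6 h (adjusted p 0.000314) and 0.019 at 24 h (adjusted p 0.795). At 12 h EGFR was -0.05 as counted (adjusted p 0.733) and -0.14 corrected (adjusted p 0.0526, and 0.0309 with the replicate block added). Its corrected rises were 0.28 from 3 h to 6 h (adjusted p 0.000123) and 0.16 from 12 h to 24 h (adjusted p 0.027). The 24 h call was also lost with the close replicates averaged (0.18, adjusted p 0.181). It was lost as well without replicate 1 of 0 h (0.19, 0.160), replicate 2 of 0 h (0.23, 0.0835), replicate 1 of 3 h (0.23, 0.0514), replicate 2 of 24 h (0.16, 0.205) or replicate 3 of 24 h (0.21, 0.120). The EGFR rise from 12 h to 24 h was lost with the close replicates averaged (0.24, adjusted p 0.165), in the fit of those times alone (0.28, 0.0511) and without replicate 1 of 12 h (0.24, 0.149), replicate 3 of 12 h (0.28, 0.0841), replicate 2 of 24 h (0.21, 0.182) or replicate 3 of 24 h (0.26, 0.127). An antisense gene, EGFR-AS1, overlaps EGFR, and whether the counting used strand was not given in the sources used here. EGFR counts were whole in 10 of 17 libraries. An expected count that is not whole holds reads divided between genes.

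**Figure D3:**
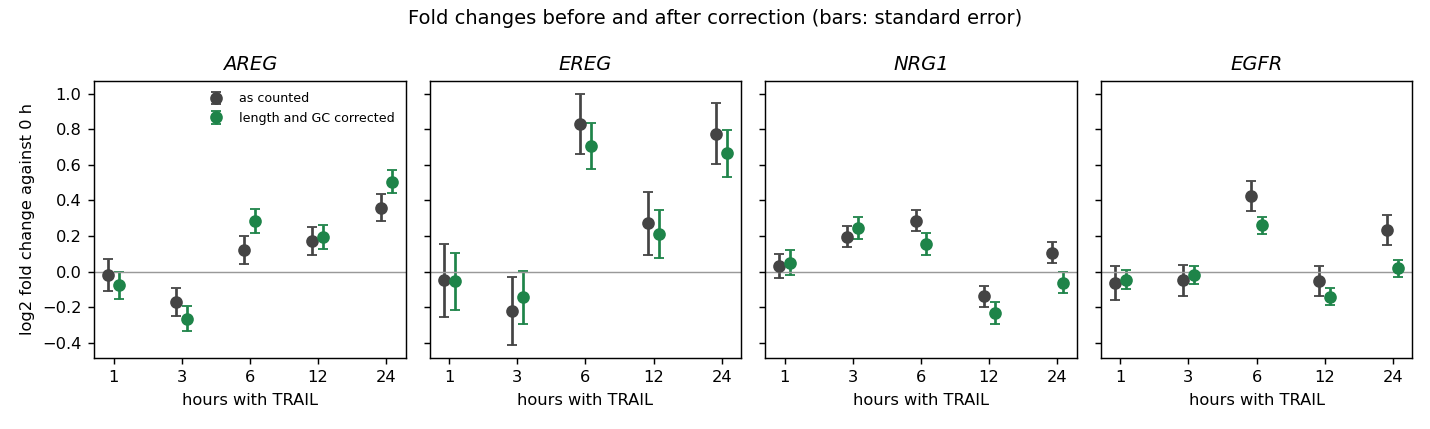
Log2 fold change against 0 h of AREG, EREG, NRG1 and EGFR at each time, as counted and after correction of each library for its trend with transcript length and GC content, with standard errors. The correction moves AREG up at 6 h and 24 h and moves EGFR at 24 h from 0.23 to 0.019, while EREG is at 0.71 and 0.67 after it for 6 h and 24 h.

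ERBB2 (HER2), the partner receptor without a ligand, maps to the plus strand of chromosome 17, 39687914 to 39730426 (GRCh38, ENSG00000141736). ERBB2 stood at 62.6, 68.1 and 62.8 CPM at 0 h and 58.0 and 60.5 CPM by 1 h. It stood at 64.5, 62.8 and 56.4 CPM by 3 h and at 57.4, 63.4 and 63.5 CPM by 6 h. The 12 h libraries had 60.4, 61.3 and 66.0 CPM. The 24 h libraries had 63.9, 65.0 and 70.9 CPM. The highest mean over the times was 1.12 times the lowest, the smallest such ratio of the 10 genes. ERBB2 was called in none of the 9 comparisons (edgeR), and 0 of them had an unadjusted p below 0.05. The genes PGAP3 and MIEN1 overlap ERBB2 on the other strand, and its counts were whole in 7 of 17 libraries, so that its level is uncertain.

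ERBB3 (HER3), the neuregulin receptor, was the only one of the 10 genes called lower at both 3 h and 6 h. It maps to the plus strand of chromosome 12, 56076799 to 56103505 (GRCh38, ENSG00000065361) and was little expressed, with 18 to 85 counts per library. ERBB3 libraries held 3.92, 3.302 and 3.05 CPM at 0 h and 3.67 and 3.07 CPM by 1 h. At 3 h they held 1.93, 1.40 and 1.94 CPM and at 6 h 2.02, 2.32 and 1.89 CPM, all below every 0 h library. At 12 h and 24 h they held 4.73, 4.26 and 4.72 CPM and 4.57, 3.97 and 4.54 CPM, all above every 0 h library. ERBB3 fell by 0.96 on the log2 scale at 3 h (SE 0.18, adjusted p 0.00126, 0.515 of the 0 h level) and by 0.72 at 6 h (SE 0.17, adjusted p 0.00379, 0.605 of the 0 h level). These 2 calls held under every alternative run, the length and GC correction included. The ERBB3 level rose by 1.14 from 6 h to 12 h (SE 0.16, adjusted p 7.8e-05, 2.20-fold), the highest fold of any of the 10 genes in any comparison made. ERBB3 was not called against 0 h at 12 h (0.41, adjusted p 0.0796) or 24 h (0.35, adjusted p 0.0848). The fall from 1 h to 3 h (-0.94, adjusted p 0.00721) was lost without replicate 1 of 1 h (-0.80, adjusted p 0.141) and in the fit of those times alone (-0.94, 0.0772).

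ERRFI1 (also known as MIG6) encodes the feedback inhibitor of the receptors and was the most abundant of the 10 transcripts. It maps to the minus strand of chromosome 1, 8004404 to 8026308 (GRCh38, ENSG00000116285). ERRFI1 libraries held 441, 434 and 447 CPM at 0 h and 499 and 472 CPM by 1 h. At 3 h they held 394, 363 and 406 CPM, below every 0 h library. From 6 h on they lay above every 0 h library, with 530, 562 and 542 CPM at 6 h and 576, 610 and 571 CPM by 12 h. The 24 h libraries had 524, 526 and 530 CPM. The ERRFI1 log2 fold change was -0.18 at 3 h (SE 0.053, adjusted p 0.0228), 0.31 at 6 h (adjusted p 0.000388), 0.41 at 12 h (SE 0.053, adjusted p 5.3e-05, a 1.33-fold level) and 0.26 at 24 h (adjusted p 0.00126). ERRFI1 thus fell while HBEGF was at its highest and was highest at 12 h, when HBEGF was not called against 0 h. The step from 3 h to 6 h was 0.49 (adjusted p 4.3e-06). The 3 h call against 0 h was lost without replicate 3 of 0 h (-0.17, adjusted p 0.0811), replicate 1 of 3 h (-0.19, 0.05002) or replicate 2 of 3 h (-0.14, 0.121) and when only those times were fitted (-0.18, 0.0564), whereas the ERRFI1 calls at 6, 12 and 24 h held under every alternative run. From 1 h to 3 h ERRFI1 fell by 0.32 (adjusted p 0.00212, and 0.0573 without replicate 1 of 1 h). From 12 h to 24 h ERRFI1 was not called as counted (-0.15, adjusted p 0.0633) but was lower after the length and GC correction (-0.12, adjusted p 0.0259).

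**Figure D4:**
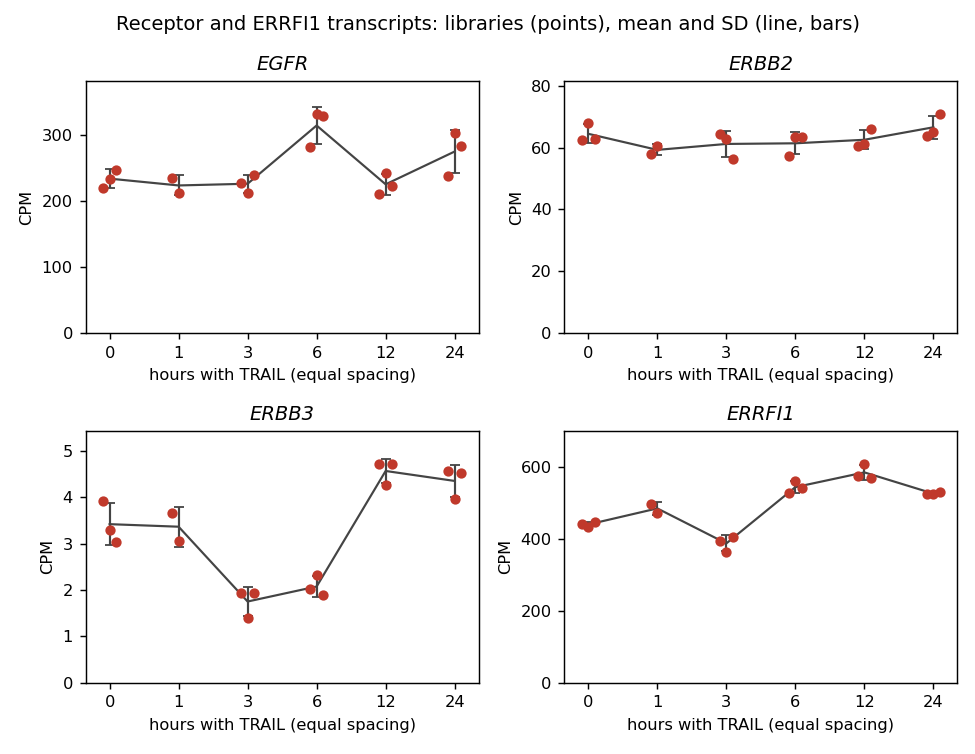
Level of EGFR, ERBB2, ERBB3 and ERRFI1 in CPM against hours with TRAIL (equally spaced), with libraries as points and mean and SD as lines and bars (n = 3, and 2 at 1 h). ERBB3 lies below its 0 h range at 3 h and 6 h and above it at 12 h and 24 h, ERRFI1 is lowest at 3 h and highest at 12 h, and ERBB2 stays between 56.4 and 70.9 CPM.

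Each time was also set against the one before it. From 1 h to 3 h HBEGF and TGFA rose and ERBB3 and ERRFI1 fell, 4 members beside 5.73% of all genes tested (3.17% higher and 2.56% lower). From 3 h to 6 h AREG, EREG, EGFR and ERRFI1 rose and HBEGF fell, 5 members beside 43.2% (22.9% higher, 20.3% lower), a share near that of all genes. In the step from 6 h to 12 h ERBB3 rose and HBEGF, EREG, NRG1 and EGFR fell, 5 members beside 20.6% (8.7% higher, 11.9% lower). In the last step HBEGF, TGFA, NRG1 and EGFR rose, 4 members beside 12% (6.42% higher, 5.6% lower). Libraries of the neighbouring times lay wholly apart for 5, 5, 5 and 6 members, beside 33.6%, 52.3%, 37.6% and 30% of all genes. The count of the last step was 2 with the close replicates averaged, and also 2 without replicate 1 of 12 h. That of the first step was 2 in a fit of only those libraries and 1 without replicate 1 of 1 h.

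Across the 17 libraries the members did not form a single pattern. The highest correlation of log2 CPM between members was that of EREG and EGFR (Pearson r = 0.861), while AREG and EREG had r = 0.747 and HBEGF and NRG1 0.696. HBEGF and ERBB3 had the most negative value (-0.772). These values are descriptions over libraries that share their depth and their trends with length and GC content. Among the 11321 other genes whose average log2 CPM was 2 or more, those most like HBEGF over the 17 libraries were MAFF (r = 0.962), SAV1 (0.936) and VIPR1 (0.919). For ERBB3 they were ARMCX1 (0.949), TNS2 (0.947) and TRIB2 (0.943), and for ERRFI1 PGM3 (0.940), NFIL3 (0.933) and SNX25 (0.927). EREG was most like TFRC (0.976), ADGRG6 (0.971) and DHX15 (0.968), and EGFR most like COL12A1 (0.984), ANOS1 (0.973) and BRPF3 (0.969). For AREG the most similar genes were SLC17A5 (0.939), CTNNAL1 (0.931) and SKP1 (0.924). TGFA was most like RFX5 (0.945), FOSL2 (0.926) and AFAP1-AS1 (0.911), and NRG1 most like MAT2A (0.924), EIF3B (0.905) and CHST11 (0.894). The median r over these candidates lay between -0.0207 and 0.0964 for the 8 genes.

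The rest of the pathway was described with 5 lists of 58 genes, of which 54 were tested. The lists were chosen with earlier results of these data known, so that their shares are descriptions and not tests of the pathway. Called against 0 h were 2 of 54 at 1 h (3.70%), 16 at 3 h (29.6%, 7 higher and 9 lower), 26 at 6 h (48.1%, 24 higher and 2 lower), 15 at 12 h (27.8%, 13 higher and 2 lower) and 30 at 24 h (55.6%, 25 higher and 5 lower). The shares over all genes tested at these times were those given above, from 0.312% at 1 h to 35.1% at 24 h. At 1 h the count was 1 without any 1 of the 0 h libraries, without replicate 2 of 1 h or without replicate 1 of 3 h. At 6 h it was 13 with the close replicates averaged, and 15 when replicate 1 of 0 h or replicate 3 of 6 h was left out. The share of all genes called at 6 h also fell under these settings, from 30.1% to 16.5%, 18.9% and 17.4%. The 12 h count was 5 without replicate 1 of 0 h, 8 without replicate 2 of 0 h, 4 without replicate 2 of 12 h and 7 without replicate 3 of 12 h. The share of all genes called at 12 h likewise went from 12.4% to 6.65%, 6.66%, 4.73% and 9.27%. At 1 h that share went from 0.312% to between 0.17% and 0.274% under the settings named. Of the genes named next, each value was called under every alternative run unless stated otherwise.

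The remaining members of the receptor family were barely expressed. EGF, the founding ligand, had at most 43 counts and rose at 24 h from 0.975 to 2.14 CPM (log2 fold change 1.13, SE 0.27, adjusted p 0.0035). NRG2 and NRG4 were tested and not called, and EPGN, NRG3 and ERBB4 had at most 2 counts in any library and were not tested. Of the 9 genes of ligand release, 1 was higher and 3 were lower at 3 h, and 1 was higher and 1 lower at 6 h. At 12 h 0 were higher and 1 was lower, and at 24 h 3 were higher and 1 lower. The shares called at these times were 44.4%, 22.2%, 11.1% and 44.4%, beside 17.7%, 30.1%, 12.4% and 35.1% of all genes tested. ADAM17, the main sheddase of several EGFR ligands, rose from 23.5 CPM at 0 h to 36.5 CPM at 24 h (log2 fold change 0.63, adjusted p 0.00197), with counts that were whole in 0 of 17 libraries. TIMP3, an inhibitor of ADAM17, stood at 410.5 CPM at 0 h and fell to 320.2 CPM by 3 h (-0.36, adjusted p 0.000124) and 311 CPM by 6 h (-0.40, adjusted p 2.9e-05). At 24 h TIMP3 was higher than at 0 h, with 533 CPM (0.38, adjusted p 4.4e-05). FRMD8, which stabilises the ADAM17 complex at the cell surface, was higher at 3 h (0.27, adjusted p 0.00904). The proteases ADAM9 (-0.64, adjusted p 0.0293) and ADAM10 (-0.39, adjusted p 0.0311) were lower at 3 h. Neither of these calls held under every alternative run. ADAM17 was not called at 3 h (-0.35, adjusted p 0.108).

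Among the 16 adaptors and genes of the RAS to ERK cascade, 2 were lower at 3 h and 0 higher, while 10 were higher and 0 lower at 6 h. At 12 h 4 were higher and 1 was lower, and at 24 h 10 were higher and 1 was lower. The shares called at these times were 12.5%, 62.5%, 31.2% and 68.8%, beside 17.7%, 30.1%, 12.4% and 35.1% of all genes tested. At 6 h BRAF (log2 fold change 0.58, adjusted p 0.000149), NRAS (0.56, 0.000514) and PTPN11 (0.51, 0.00188) rose, and at 24 h NRAS (0.53, 0.000669) and SOS2 (0.47, 0.00157). MAP2K1, which encodes MEK1, was lower at 3 h (-0.35, adjusted p 0.000743). BRAF counts were whole in 0 of 17 libraries and MAP2K1 counts in 1, so that these values are uncertain.

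The list chosen as genes that restrain the receptors had 12 tested members, and whether each does so in these cells was not tested. At 3 h 1 was higher and 1 lower (16.7% called, beside 17.7% of all genes tested). At 6, 12 and 24 h 7, 5 and 7 were higher and 0 lower. These were 58.3%, 41.7% and 58.3% of the list, beside 30.1%, 12.4% and 35.1% of all genes tested. CBL, the ubiquitin ligase of active EGFR, rose from 43.8 CPM to 76.9 CPM by 6 h and was at 70.9 CPM by 24 h (log2 fold changes 0.81 and 0.69, adjusted p 0.00014 and 0.000447). PTPRJ, a receptor-type phosphatase, rose from 106.5 CPM to 153 at 12 h and 195 at 24 h (0.52 and 0.87, adjusted p 0.000467 and 6.8e-07). LRIG1, a membrane protein that promotes loss of EGFR family receptors, rose from 23.8 to 42.4 CPM at 24 h (0.83, adjusted p 8.3e-07), with counts whole in 1 of 17 libraries, and its relative LRIG3 fell at 3 h (-0.88, adjusted p 0.00027). PTPN1 was higher at 24 h (0.48, adjusted p 4.8e-05), and SPRY2 at 3 h (0.26, 0.00376) and 6 h (0.30, 0.000845).

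Genes known to follow ERK activity were split in direction. Of 14 tested, 2 were higher at 1 h, 5 higher and 3 lower at 3 h, 6 higher and 1 lower at 6 h, and 4 higher at 12 h. At 24 h 4 were higher and 3 lower. From 1 h to 24 h these were 14.3%, 57.1%, 50%, 28.6% and 50% of the list. The shares of all genes tested were 0.312%, 17.7%, 30.1%, 12.4% and 35.1%. DUSP5, an ERK phosphatase, rose at 1 h (log2 fold change 0.66, adjusted p 2.4e-06). At 3 h FOSL1 (0.97, adjusted p 8.2e-08), IER3 (0.94, 4.8e-08) and SPRY4 (0.52, 1.3e-05) were higher, the time at which HBEGF was also highest. SPRED1 was lower at 3 h (-0.56, adjusted p 0.0100), a call that did not hold under every alternative run. The median log2 fold change of the list at 3 h was 0.037. At 24 h EGR1 (-1.02, adjusted p 0.000108) and FOSL1 (-0.47, 0.000303) were lower, while IER3 was higher (0.33, 0.00283). TGFA, AREG and EREG were also higher at 24 h. EGR1 had been higher at 6 h (0.52, adjusted p 0.00853). DUSP6, another ERK phosphatase, was lower at 6 h (-0.30, adjusted p 0.000996). IER3 counts were whole in 0 of 17 libraries and DUSP6 counts in 1.

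**Figure D5:**
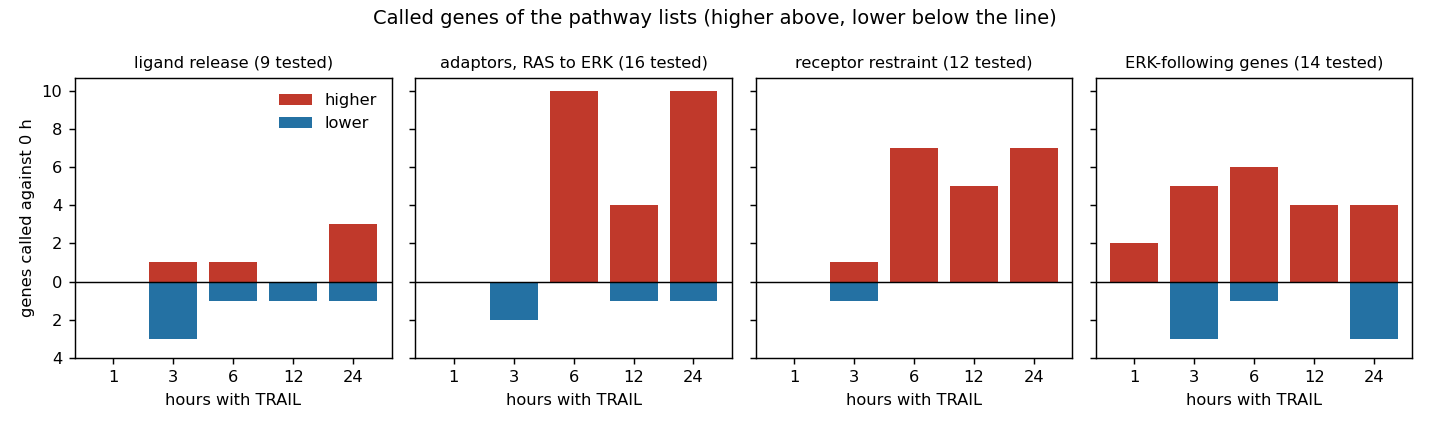
Number of genes called higher (above the line) and lower (below it) against 0 h at each time in 4 of the pathway lists. Of all genes tested, 17.7%, 30.1%, 12.4% and 35.1% were called at 3, 6, 12 and 24 h. The cascade list shows 0 higher at 3 h and 10 higher at both 6 h and 24 h, the restraint list has 0 lower from 6 h on, and the list of ERK-following genes has calls in both directions at 3, 6 and 24 h.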

How the data were processed

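MDA-MB-231 RNA was sequenced in 17 stranded mRNA libraries (paired-end), per the labels' protocols. The deposited values are expected counts per gene, not scaled to depth or length. The authors' file name gives RSEM, and the submitters' processing notes name cutadapt 1.18, STAR 2.7.0f and hg38. The annotation release and strand setting were not given in the sources used here. Of 58870 entries, 58597 matched GENCODE 29 without the version, which gave positions, lengths and GC content.

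Expected counts were rounded, filtered with filterByExpr, scaled by TMM and fitted in edgeR 4.0.16 (R 4.3.3) by 1 robust quasi-likelihood model over 17 libraries, each time having its own mean. Each time was compared with 0 h and with the time before, and all times together. Genes with an adjusted p (Benjamini-Hochberg, 15365 genes) below 0.05 were called. Log2 fold changes carry the standard error from the F statistic, and CPM values are relative to TMM-scaled totals. Depths were 13731497 to 19234939 counts, and the biological coefficient of variation (common) came to 7.06%. The script was tested on simulated data.

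Members and lists were chosen with earlier results of these data known. All members are named. Per list and time, at most 4 called genes with the largest absolute log2 fold change were eligible to be named. Only genes called under every alternative are given, except ADAM9, ADAM10 and SPRED1 at 3 h. One gene is not reported here. Genes most like a member are the 3 with the highest Pearson r of log2 CPM (prior count 2). Alternatives were RLE scaling, library size alone, DESeq2 1.42.0, limma-voom (limma 3.58.1), no filter, a filter at a mean count of 10, fits restricted to the compared groups, a replicate block, a spline correction for transcript length and GC content alone and with the block, averaging of the close replicates at 6 h and 24 h, and each library left out.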

Additional observations from a re-analysis of the deposited data

How the results depend on the processing

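Of the 21 member differences called against 0 h, 15 were called under every alternative run, and 25 of all 39 called member differences were. Among the named pathway candidates, 36 of 58 were. The replicate number is not tied to a shared culture or day in the labels, and only 8 of 40 pairs of same-numbered libraries had deviations from their time means that correlated above 0.1 (-0.199 to 0.211). With the replicate block, 44 genes were called at 1 h and 2908 at 3 h against 0 h, and the block changed 2 member calls: TGFA from 1 h to 3 h was lost (0.20, adjusted p 0.0726) and EREG from 12 h to 24 h was gained (0.51, adjusted p 0.0400). In 10 of 17 libraries the closest library of another time had the same number. Pairs with different numbers correlated from -0.163 to 0.199, with a median of -0.0086, beside a median of 0.0108 for same-numbered pairs. The members called at 3 h against 0 h numbered 3 when only the groups compared were fitted, and at 3 h against 1 h they numbered 2. At 12 h against 0 h the members called were 4 with the length and GC correction and 4 with that correction and the replicate block, where AREG was no longer called and EGFR was called lower. At 24 h against 12 h they were 2 with the close replicates averaged, where 13 pathway genes were called at 6 h and 1 at 1 h against 0 h. Without the filter, 4 pathway genes were called at 1 h. With 1 library left out, the members called were 0 to 1 at 1 h (0 without the 1 h replicate 2), 3 to 5 at 3 h, 7 to 7 at 6 h, 2 to 2 at 12 h, 5 to 6 at 24 h and 8 to 8 over all times. Between consecutive times they were 1 to 4, 4 to 5, 4 to 5 and 2 to 6. The pathway genes called against 0 h were 1 to 3, 11 to 17, 15 to 28, 4 to 19 and 22 to 32 at 1, 3, 6, 12 and 24 h. Signs were compared only for member differences that were called, had an unadjusted p below 0.05 in edgeR or were called under an alternative. Among these, signs reversed for NRG1, uncalled there, at 24 h against 0 h (-0.061 with the length and GC correction, -0.061 with the block added) and at 6 h against 3 h (-0.088 and -0.088). Scaling moved the median of all genes by at most 0.0743 (log2). BTC and ERBB3 are limited by their counts.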
